A study of Mus musculus with 6 samples.

Results

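Creatine kinases, myoglobin and the enzymes that handle AMP were described in left ventricles of mice by 8 genes of the 31273 gene symbols in the deposited expression table. They were chosen by symbol and cover 3 creatine kinases (Ckm, Ckmt2 and Ckb), the creatine transporter Slc6a8, myoglobin (Mb), adenylate kinase Ak1 and the AMP deaminases Ampd1 and Ampd3. All 8 symbols were in the table, and 7 of them reached a mean of 1 TPM (each gene's share of transcripts after correction for its length, on a fixed total) and were tested, each with a control mean above that limit as well. Ampd1 did not reach it. The ventricles carried cardiomyocyte-specific RBM20 overexpression in 3 libraries and a control genotype in the other 3. RBM20 is a splicing regulator of heart and skeletal muscle, and the study design names a tamoxifen-inducible knock-in restricted to cardiomyocytes. Age, sex and tamoxifen dosing of each group are not given in the labels used here, and the titles abbreviate the overexpression libraries as cre and the control libraries as cki, so groups follow the genotype label. The question was how the level of each of these genes differed between the 2 genotypes.

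Muscle cells keep ATP steady by passing phosphate between ATP and creatine. Mitochondrial creatine kinase charges creatine where ATP is made, and the cytosolic enzymes use phosphocreatine to rebuild ATP beside the myofilaments and ion pumps. Cytosolic creatine kinase is a dimer of muscle (M) and brain (B) subunits, and a larger B share is a known trait of the fetal and the stressed heart. Adenylate kinase joins 2 ADP into ATP and AMP, AMP deaminase removes AMP as IMP, and myoglobin stores oxygen and carries it towards mitochondria.

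Upstream sequence is shown for the 3 creatine kinase genes because Ckm and Ckmt2 fell while Ckb rose. Each has a single annotated start in the RefSeq promoter table for GRCm38.p6, which matched 6 of the 8 genes. Printed are the 250 bases before the start, 5′ to 3′ on the gene's strand, with every match to a searched motif in capitals.
Ckm, chr7:19410844-19411093, plus strand: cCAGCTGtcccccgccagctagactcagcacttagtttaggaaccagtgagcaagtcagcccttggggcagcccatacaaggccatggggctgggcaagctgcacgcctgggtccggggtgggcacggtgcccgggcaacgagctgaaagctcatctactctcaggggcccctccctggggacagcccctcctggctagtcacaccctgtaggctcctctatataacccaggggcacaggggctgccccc
Ckmt2, chr13:91876886-91877135, minus strand: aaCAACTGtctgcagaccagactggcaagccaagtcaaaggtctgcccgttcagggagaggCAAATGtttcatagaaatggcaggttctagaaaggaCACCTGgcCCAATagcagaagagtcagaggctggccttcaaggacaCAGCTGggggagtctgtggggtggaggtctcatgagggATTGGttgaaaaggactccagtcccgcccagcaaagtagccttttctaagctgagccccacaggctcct
Ckb, chr12:111672339-111672588, minus strand: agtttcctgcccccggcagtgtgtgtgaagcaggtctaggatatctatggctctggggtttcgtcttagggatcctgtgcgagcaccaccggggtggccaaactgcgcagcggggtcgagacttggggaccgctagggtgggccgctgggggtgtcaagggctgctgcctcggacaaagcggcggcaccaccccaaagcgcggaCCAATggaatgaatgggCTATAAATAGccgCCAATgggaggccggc

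The motifs searched on both strands were the E-box (CANNTG), a TATA element (TATAAA), the CCAAT box (CCAAT), the half-site of estrogen-related receptors (AAGGTCA), the MEF2 site and the serum response CArG box. Ckm had 1 E-box match, at -249 to -244 from the start. The TATA search took the exact letters only, so the tatataa near the 3′ end of the printed Ckm window was not counted. The Ckmt2 window held 4 E-box matches and 2 CCAAT matches, 1 on each strand. In Ckb the TATA element at -28 to -23 lay inside a MEF2 match at -29 to -20, with CCAAT matches at -46 to -42 and -16 to -12. Among all 32851 windows of the same length, 66.2% had an E-box, 12.4% the TATA letters, 33.8% a CCAAT box and 2.92% a MEF2 match. The receptor half-site was found in 4.08% of windows and the CArG box in 1.47%, and neither in these 3. A match describes letters in a window and is not a measured binding site.

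The labels were checked first. Rbm20 stood at 321, 913 and 907 TPM in overexpression replicates 1, 2 and 3, against 74.9, 90.9 and 79.5 TPM in control replicates 1, 2 and 3. Esr1 encodes a receptor whose hormone-binding part is used in inducible Cre proteins. Esr1 was at 52.98 to 217.8 TPM in overexpression libraries and at 0.234 to 0.415 TPM in control libraries. RBM20 and the inducible Cre therefore cannot be told apart here. Overexpression replicate 1 had Ddx3y at 88.1 TPM and Xist near 0, while the other 5 libraries had Xist and no Ddx3y. Mitochondrially encoded genes took 36.7% to 41.0% of TPM in overexpression libraries and 48.3% to 52.0% in control libraries. Depth, estimated from the steps between low TPM values, was 51120000 to 90530000 reads in overexpression libraries and 41720000 to 70510000 in control libraries.

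Of the 7 tested genes, 2 were higher (Ckb and Ampd3), 4 were lower (Mb, Ckmt2, Ckm and Ak1) and 1, Slc6a8, was not called in RBM20 overexpression against control ventricles. The test was limma on log2(TPM + 1), with p-values adjusted over all 12404 genes and a threshold of 0.05. By the same rule 59% of all tested genes were called higher and 9.09% lower, 68.1% in all, and the log2 difference had a median of -0.55 over the 7, against 0.55 over all genes. TPM is a share, so the lower mitochondrial share of the overexpression libraries goes with higher TPM of other genes. Removing the mitochondrially encoded genes moved the log2 difference of Ckm from -0.58 to -0.87 and that of Mb from -1.53 to -1.81. Each library was also scaled by median of ratios, so that its typical gene matched the average library (rescaled values). This step brought the median of all genes to 0.01. It made a larger move, to -1.21 for Ckm and -2.15 for Mb. After this rescaling 22.2% of genes were higher, 24% lower and 46.2% called in all. Ckb and Ampd3 stayed higher on this scale and the other 5 genes, Slc6a8 included, were lower, with a median of -1.18 over the 7. Rescaling moves differences downward, so it is no separate check of the decreases.

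**Figure D1:**
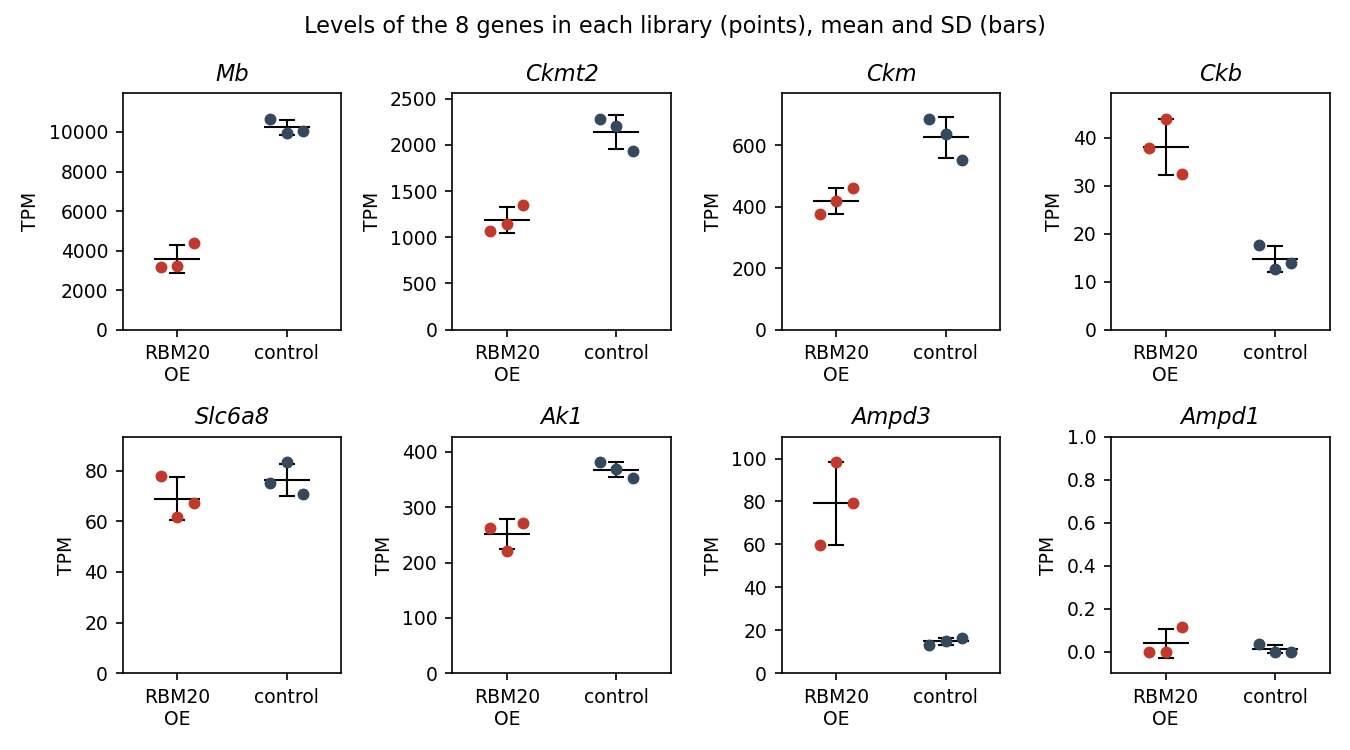
TPM of the 8 genes in 3 RBM20 overexpression (OE, left) and 3 control libraries (right). Points are libraries in replicate order and bars give the mean and SD. In Mb, Ckmt2, Ckm and Ak1 all overexpression libraries lie below all control libraries, in Ckb and Ampd3 all lie above, and in Slc6a8 the groups overlap. The vertical axes start at 0 except for Ampd1, which is near 0 throughout.

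Myoglobin had the largest decrease of the 8 genes. Mb stood at 3167, 3205 and 4398 TPM in the overexpression libraries, against 10666, 9969 and 10069 TPM in the control libraries. The groups did not overlap, and the highest overexpression library was far below the lowest control library. Mean levels were 3590 ± 700.02 TPM with overexpression and 10235 ± 377 TPM in control (SD, n = 3 each), 2.85-fold lower. The log2 difference was -1.53 (SE 0.134, adjusted p = 4.84e-05) in TPM and -2.15 (SE 0.190) after rescaling. Among nuclear genes Mb ranked 8 to 17 by TPM in the overexpression libraries and 2 in every control library. Its share of the TPM of nuclear genes, which the mitochondrially encoded genes do not touch, was 0.589% ± 0.136 with overexpression and 2.04% ± 0.0772 in control.

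Both creatine kinases of striated muscle fell. Ckmt2, the sarcomeric mitochondrial enzyme, was at 1066, 1148 and 1347 TPM with overexpression, against 2282, 2201 and 1932 TPM in control. Control libraries were all higher, by 1.80-fold in the mean (1187 ± 144 TPM with overexpression and 2138 ± 183 TPM in control, SD, n = 3 each). The log2 difference was -0.85 (SE 0.111, adjusted p = 0.000276), and -1.48 (SE 0.142) after rescaling. Ckm, the cytosolic M subunit, was at 375, 417 and 460.4 TPM with overexpression, against 686, 638 and 553 TPM in control. Here too the groups did not overlap, with means of 417 ± 42.7 TPM with overexpression and 625 ± 67.1 TPM in control (SD, n = 3 each), 1.50-fold lower. The log2 difference was -0.58 (SE 0.111, adjusted p = 0.00186), and -1.21 (SE 0.131) after rescaling.

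The B subunit gene moved the other way. Ckb was at 37.9, 44.0 and 32.4 TPM in overexpression libraries, against 17.7, 12.7 and 13.8 TPM in control libraries. No control library reached the lowest overexpression library, and the means were 38.1 ± 5.78 TPM with overexpression and 14.7 ± 2.64 TPM in control (SD, n = 3 each), 2.58-fold higher. The log2 difference was 1.31 (SE 0.158, adjusted p = 0.000184) and remained past the threshold after rescaling (0.71, SE 0.147, adjusted p = 0.00524). Ckb is made by many cell types besides cardiomyocytes, and in bulk tissue a change in the number of cells of a type and a change in RNA per cell cannot be told apart.

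**Figure D2:**
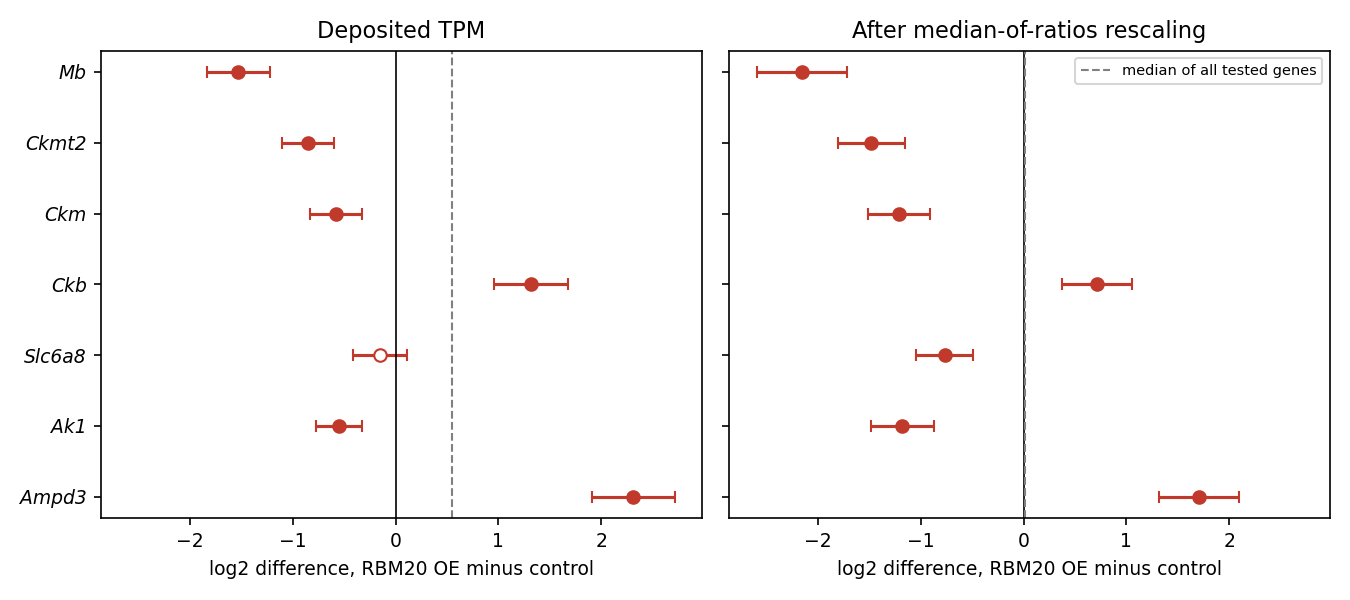
Log2 differences of RBM20 overexpression minus control with 95% confidence intervals from limma for the 7 tested genes, in deposited TPM (left) and after rescaling (right). Filled points passed an adjusted p of 0.05 and the dashed line is the median of all tested genes. Ckb and Ampd3 lie right of 0 on both scales, while Slc6a8 crosses 0 in TPM (-0.15) and lies left of it after rescaling (-0.77).

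The 3 creatine kinase genes can be compared within each library, where the scaling of the library cancels out. Their summed level was 1479, 1609 and 1839.8 TPM with overexpression, against 2985, 2851 and 2499 TPM in control. Ckmt2 made up 72.2% ± 0.940 of the sum with overexpression and 77.0% ± 0.472 in control (SD, n = 3 each). Ckm made up 25.4% ± 0.452 with overexpression and 22.5% ± 0.429 in control. Ckb was the small part, at 2.56%, 2.73% and 1.76% with overexpression, against 0.594%, 0.446% and 0.552% in control. For each of the 3 shares the groups did not overlap. There were 9.90, 9.48 and 14.2 Ckm transcripts per Ckb transcript with overexpression, against 38.7, 50.2 and 40.1 in control. The shares sum to a whole and were given no test.

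**Figure D3:**
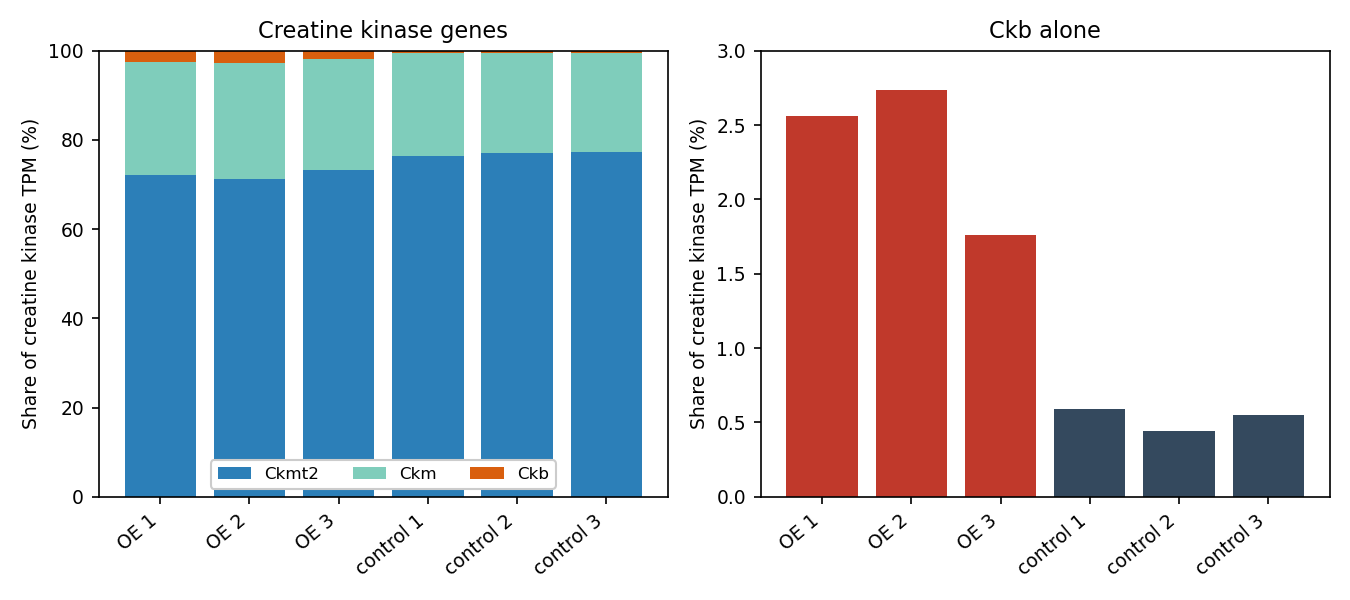
Share of the summed TPM of Ckmt2, Ckm and Ckb in each library (left) and the Ckb share on its own axis (right), in percent, with the 3 overexpression libraries left of the 3 control libraries. Bars are single libraries. The Ckb share is 1.76% to 2.73% with overexpression and 0.446% to 0.594% in control.

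Slc6a8 carries creatine into the cell, since cardiomyocytes make little of it. It was at 78.1, 61.5 and 67.3 TPM with overexpression, against 75.0, 83.3 and 70.7 TPM in control. The gene lies on the X chromosome, and 78.1 TPM came from overexpression replicate 1, which had Ddx3y RNA and almost no Xist. The other overexpression libraries lay below all control libraries, and the part of sex in these values was not tested. The groups overlapped in TPM, and the log2 difference was -0.15 (SE 0.115, adjusted p = 0.275), with a 95% interval of -0.41 to 0.11. After rescaling it was -0.77 (SE 0.120, adjusted p = 0.00145) without overlap, so the call depends on the scaling. Removing the mitochondrially encoded genes gave a value between these (-0.43, adjusted p = 0.0124). Per 100 creatine kinase transcripts there were 5.28, 3.82 and 3.66 Slc6a8 transcripts with overexpression, against 2.51, 2.92 and 2.83 in control. Here the overexpression libraries lay above all control libraries, opposite to the rescaled values. The creatine kinase sum under this ratio averaged 1643 TPM with overexpression and 2778 TPM in control.

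Ak1, the main cytosolic adenylate kinase of muscle, fell as well. Its levels were 263, 220.3 and 271 TPM with overexpression, against 381, 369 and 354 TPM in control. The means were 252 ± 27.3 TPM with overexpression and 368 ± 13.8 TPM in control (SD, n = 3 each), 1.46-fold lower, and the groups did not overlap. The log2 difference was -0.55 (SE 0.0984, adjusted p = 0.00129), and -1.18 (SE 0.131) after rescaling. Ak1 over Ckm was 0.702, 0.528 and 0.589 with overexpression, against 0.556, 0.579 and 0.639 in control, so this ratio overlapped. Mb over Ckm did not overlap, at 8.45, 7.69 and 9.55 with overexpression, against 15.6, 15.6 and 18.2 in control.

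The AMP deaminase genes were carried by Ampd3, the form known from red blood cells and most tissues outside skeletal muscle. Ampd3 was at 59.9, 98.2 and 79.1 TPM with overexpression, against 13.3, 14.9 and 16.5 TPM in control. Every overexpression library was above every control library, with means of 79.1 ± 19.2 TPM with overexpression and 14.9 ± 1.60 TPM in control (SD, n = 3 each), 5.32-fold higher. The log2 difference was 2.31 (SE 0.176, adjusted p = 2.67e-05), and 1.71 (SE 0.168, adjusted p = 0.000144) after rescaling. By TPM rank among nuclear genes it stood at 1101 to 1759 in overexpression libraries and at 3855 to 4632 in control libraries. Ampd1, the skeletal muscle form, was listed at 0, 0 and 0.115 TPM with overexpression, and at 0.0341, 0 and 0 TPM in control. It was too low to compare. Ampd2, a form of other tissues and named after its values were seen, rose to 4.60 ± 0.848 TPM with overexpression, against 1.40 ± 0.204 TPM in control (SD, n = 3 each; log2 difference 1.21, adjusted p = 0.000398). Ampd3 made up 91.5%, 95.8% and 95.1% of the 3 AMP deaminase genes with overexpression and 91.5%, 90.2% and 92.2% in control, and these shares overlapped.

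Ordered by TPM, the 8 genes ran Mb, Ckmt2, Ckm, Ak1, Ampd3, Slc6a8, Ckb and Ampd1 with overexpression, and Mb, Ckmt2, Ckm, Ak1, Slc6a8, Ampd3, Ckb and Ampd1 in control. Neighbours whose libraries overlapped were Ampd3 and Slc6a8 with overexpression, and Ampd3 and Ckb in control. The 4 most abundant genes kept their order in both groups. In 5 of the 6 called genes, Ampd3 being the other, overexpression replicate 3 was the overexpression library nearest to the control mean, in TPM and after rescaling. This library also had the highest mitochondrial share of the 3 (41.0%) and the largest estimated depth (90530000 reads). Its Rbm20 level was 907 TPM, against 321 and 913 TPM in overexpression replicates 1 and 2. The part of these traits in its position was not tested. Groups did not overlap in 6 of 7 tested genes in TPM, against 72.5% of all tested genes, and in 7 of 7 after rescaling, against 57%. The exact permutation test over libraries (two-sided) gave p = 0.1 for each of the 6 called genes, the smallest p that 3 against 3 allows, and p = 0.3 for Slc6a8.

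The labelled tissue was checked against its defining markers. Those of ventricular cardiomyocytes summed to 45665 to 50249.6 TPM with overexpression and 45333 to 52137 TPM in control, ranges that overlapped. After rescaling the sums were 34068 to 43250.3 with overexpression and 57890.3 to 65584 in control. Within the list of 8 markers 3 were higher (Actc1, Actn2 and Tnnc1) and 3 lower (Myl2, Tnnt2 and Tnni3) in TPM, and after rescaling 5 were lower and none of these 3 was called higher. Per 1000 TPM of these markers Mb was at 64.0, 70.2 and 87.5 with overexpression, against 205, 197 and 222 in control. By the same measure Ckmt2 averaged 24.5 ± 2.69 with overexpression and 43.3 ± 0.588 in control, and Ckm 8.62 ± 0.905 with overexpression and 12.6 ± 0.478 in control (SD, n = 3 each). Slc6a8 per 1000 marker TPM overlapped, at 1.42 ± 0.136 with overexpression and 1.55 ± 0.102 in control.

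Markers of other cell types that could supply Ckb or Ampd3 RNA were summed in the same libraries. Over all tested genes 59% were higher and 9.09% lower in TPM, and 22.2% and 24% after rescaling. Marker counts, those of ventricular cardiomyocytes included, are read beside these shares. All 10 macrophage markers were higher in TPM and 9 after rescaling, and their sum was 526 to 830.0 TPM with overexpression and 214 to 275 TPM in control. After rescaling the macrophage sums were 452 to 665 with overexpression and 273 to 346 in control, without overlap. Fibroblast markers were higher in 5 of 8, near the share of all genes (3 higher and 2 lower after rescaling). Their sums were 873 to 1089.8 TPM with overexpression and 477 to 616 TPM in control. After rescaling the fibroblast sums overlapped, at 746 to 813 with overexpression and 609 to 775 in control. The list was uneven. Col1a1 (log2 difference 2.99, and 2.38 after rescaling) and Col1a2 (2.59 and 1.97) had the largest increases. Dcn and Dpt were not called in TPM and were the 2 lower after rescaling (-0.49 and -0.54). These 4 genes were named after their values were seen. Red blood cell markers were called in 0 of 5 by limma on both scales (0 of 5 at an unadjusted p below 0.05 on either), and summed to 742 to 1809 TPM with overexpression and 777 to 1175 TPM in control. Of 8 endothelial markers limma called 0 in TPM (1 at an unadjusted p below 0.05), and 3 were lower after rescaling. Smooth muscle and pericyte markers were higher in 3 of 7 tested, below the share of all genes (2 higher and 3 lower after rescaling). Skeletal muscle markers summed to 18.2 to 26.2 TPM with overexpression and 3.06 to 4.72 TPM in control, with both tested markers higher on both scales and Myod1, Myf5, Pax7, Myh4 and Tnnc2 listed at 0 in all libraries. Atrial cardiomyocyte markers were higher in 4 of 5 in TPM and 2 of 5 after rescaling, and summed to 2566 to 4210.1 TPM with overexpression and 103 to 187 TPM in control. Nearly all of that sum was Nppa, the natriuretic peptide that stressed ventricles make as well, at 3122 ± 882 TPM with overexpression and 127 ± 46.9 TPM in control (SD, n = 3 each). Myl7, an atrial myosin light chain, was at 35.4, 3.07 and 116 TPM with overexpression, against 3.45, 1.08 and 3.13 TPM in control, and its groups overlapped. Myl4, the other atrial light chain of the list, was at 23.6, 11.0 and 31.9 TPM with overexpression, against 0.910, 1.20 and 1.46 TPM in control. Its groups did not overlap, and limma called it higher in TPM (adjusted p = 8.42e-05) and after rescaling (adjusted p = 0.000604). Nppa, Myl7 and Myl4 were named after their values were seen. Neuron and glia markers were higher in 1 of 3 tested on both scales, and their sum was 20.5 to 35.6 TPM with overexpression and 2.99 to 5.07 TPM in control, with Th at 0 in all libraries. Of the adipocyte markers 1 was tested, Cidea, named after its values were seen. Cidea averaged 39.2 TPM with overexpression and 29.1 TPM in control, and passed the threshold (higher) in TPM but not on the rescaled values. Adipoq, Plin1, Ucp1, Lep and Retn averaged below 1 TPM in each group. The part of these cells in the changes of the 8 genes was not tested.

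Other genes of the same reactions were taken from 8 pathway lists, and their counts are set beside the 59% of all genes higher and 9.09% lower in TPM, and the 22.2% and 24% after rescaling. Of 3 genes of creatine synthesis and the second mitochondrial creatine kinase, 2 were tested. Gatm, which makes the creatine precursor, rose 6.05-fold to 8.71 ± 0.953 TPM, against 1.44 ± 0.276 TPM in control (log2 difference 1.99, adjusted p = 3.46e-05, and 1.52 after rescaling). Gamt, which completes creatine, was at 4.84 ± 0.936 TPM with overexpression and 3.68 ± 0.359 TPM in control and was not called (adjusted p = 0.129). Ckmt1, the mitochondrial creatine kinase of other tissues, stayed below 1 TPM in all libraries.

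Among the other adenylate kinases 4 of 8 were tested, with 2 higher and 1 lower in TPM and 1 higher and 2 lower after rescaling. Ak4, a mitochondrial matrix form, fell to 15.6 ± 3.45 TPM, against 23.1 ± 0.945 TPM in control (log2 difference -0.56, adjusted p = 0.0127). Ak6, a nuclear protein, rose to 29.8 ± 10.7 TPM, against 12.4 ± 0.521 TPM in control. On rescaled values the Ak6 call (log2 difference 0.55) was lost in 5 of the 6 fits that left out a library, those without overexpression replicate 2 or 3 or any control replicate (0.34 to 0.62, limma adjusted p = 0.0559 to 0.107).

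The purine nucleotide cycle and salvage list, which turns IMP back into AMP and recovers bases, had 8 of 11 higher and 1 lower in TPM, and 6 higher and 3 lower after rescaling (median log2 difference 0.96 and 0.34). Adk, which rephosphorylates adenosine to AMP, was the member that fell in TPM, to 29.0 ± 2.92 TPM, against 71.7 ± 3.80 TPM in control (log2 difference -1.28, adjusted p = 3.85e-05). Hprt, which salvages hypoxanthine, rose 2.20-fold to 192 ± 23.5 TPM, and Impdh2, which directs IMP to guanine nucleotides, rose 1.97-fold to 69.7 ± 6.39 TPM. The rescaled Impdh2 call (log2 difference 0.34) was lost without control replicate 2 (0.29, limma adjusted p = 0.0657) or 3 (0.33, adjusted p = 0.0596). Of 9 nucleotide breakdown genes 7 were higher and 0 lower in TPM (limma, with 0 lower at an unadjusted p below 0.05), with 4 higher and 1 lower after rescaling (median 1.02 and 0.46). Nt5e, the surface enzyme that makes adenosine from AMP outside the cell, rose 3.91-fold to 38.9 ± 7.45 TPM. The cytosolic nucleotidases Nt5c2 and Nt5c rose 3.21-fold and 2.90-fold, to 35.3 ± 7.84 and 25.7 ± 4.31 TPM (SD, n = 3 each). Nt5e, Nt5c2 and Nt5c were higher after rescaling as well (log2 differences 1.33, 0.98 and 0.84).

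AMPK, the kinase that senses AMP, and its upstream complex had 6 of 11 genes higher and 1 lower in TPM, and 4 higher and 4 lower after rescaling (median 0.66 and 0.06). Its subunits went both ways. Prkab2, a beta subunit, rose 5.11-fold to 81.1 ± 11.7 TPM, and Prkag3, the gamma subunit of skeletal muscle, rose to 9.83 ± 0.555 TPM, against 0.788 ± 0.101 TPM in control. Prkag3 passed the filter through the overexpression group. Cab39, a partner of the upstream kinase, rose 2.31-fold to 171 ± 15.7 TPM (log2 difference 1.20, adjusted p = 3.36e-05). The member that fell was Prkaa2, the catalytic subunit prevalent in muscle, named after its values were seen, at 27.0 ± 7.96 TPM with overexpression and 49.6 ± 2.48 TPM in control (log2 difference -0.89, adjusted p = 0.00261).

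Genes that pass ADP and ATP across the mitochondrial membranes were lower in 3 of 6 and higher in 1 in TPM, and lower in all 6 tested after rescaling (median -0.23 and -0.86). Slc25a4, the heart and muscle ADP/ATP translocator, fell to 1995 ± 141 TPM, against 4039 ± 304 TPM in control (log2 difference -1.02, adjusted p = 6.47e-05). Vdac1, the outer membrane porin, fell to 647 ± 53.6 TPM, against 874 ± 25.6 TPM in control, and Ppif, which regulates the permeability transition pore, to 31.5 ± 3.30 TPM, against 64.3 ± 1.75 TPM in control. Slc25a5, the translocator of most other tissues and named after its values were seen, was called higher in TPM (log2 difference 0.26) and lower after rescaling (-0.36).

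Nucleoside diphosphate kinases, which spread phosphate from ATP to other nucleotides, were higher in 1 of 5 and lower in none in TPM (limma, 0 lower at an unadjusted p below 0.05), and 1 higher and 3 lower after rescaling. The member that rose was Nme1, at 23.7 ± 5.05 TPM with overexpression and 8.56 ± 0.119 TPM in control (log2 difference 1.35, adjusted p = 0.000196). Nme6 and Nme7, of less settled function, were not called in TPM (log2 differences 0.18 and 0.39). Without overexpression replicate 3 Nme7 passed the threshold (0.55, adjusted p = 0.0249). The list of other globins and oxygen handling, which also holds the muscle LIM protein Fhl1 and 2 cytochrome b5 reductases, had 5 of 7 higher and 1 lower in TPM, and 2 higher and 1 lower after rescaling. Egln1, an oxygen sensor that marks HIF for degradation, fell to 125 ± 5.53 TPM, against 185 ± 14.6 TPM in control (log2 difference -0.56, adjusted p = 0.000791). Cyb5r3 rose 3.10-fold to 153 ± 20.9 TPM and Fhl1 rose 7.40-fold to 594 ± 180 TPM. Cytoglobin (Cygb), named after its values were seen, was at 60.9 ± 7.10 TPM with overexpression and 36.8 ± 6.12 TPM in control, called higher in TPM (log2 difference 0.72) and not after rescaling (0.10).

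**Figure D4:**
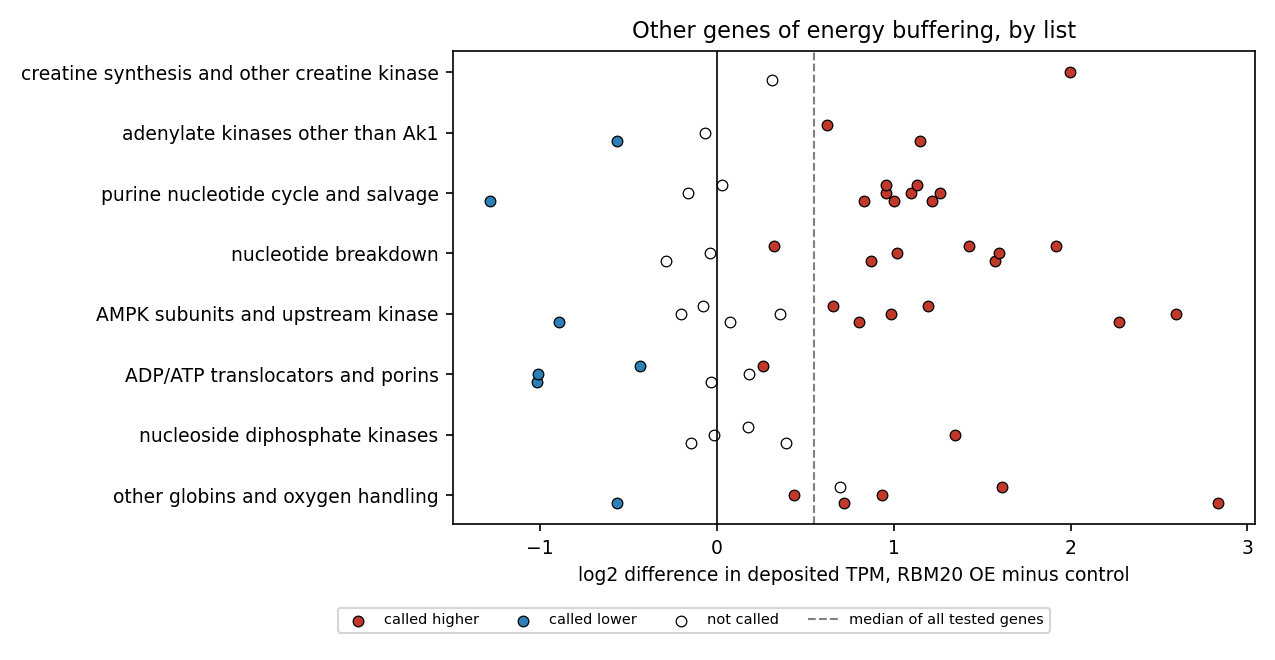
Log2 difference in deposited TPM, RBM20 overexpression minus control, for each tested gene of the 8 pathway lists. Points are genes, coloured by call at an adjusted p of 0.05, and the dashed line is the median of all tested genes (0.55). Translocators and porins lie left of that line, while nucleotide salvage and breakdown genes lie on both sides with most called higher.

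The profile across the 6 libraries was also compared with that of 6477 other genes that averaged 10 TPM or more. Likeness was the root mean square difference of log2(TPM + 1) values centred on each gene's mean. Nearest to Ckm were Ndufv2, a complex I subunit (0.0468), Oxnad1 (0.0494) and Pdhb, a subunit of pyruvate dehydrogenase (0.0518). Nearest to Mb were Ppm1k, a mitochondrial phosphatase (0.0490), Acaa2, a thiolase of fatty acid oxidation (0.0581), and Fndc5, the irisin precursor (0.0737). The genes closest to Ckb were Zfp568 (0.0439), Ppia, or cyclophilin A (0.0685), and B3gnt3 (0.0704). Near Ampd3 were Cyth2 (0.160) and Ddr1, a collagen receptor (0.167), farther away than the genes named for the other 3. All of these genes share the 2-group split with the gene they resemble, so their likeness is a description with no test.

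By GENCODE M21 (GRCm38), which may not be the annotation of the deposited table, exons of Ckm, Ckmt2, Mb and Ampd3 overlap those of other genes. Partners on the opposite strand were low beside Ckm (0.302 TPM with overexpression and 1.25 TPM in control), Ckmt2 (3.50 TPM with overexpression and 10.03 TPM in control) and Mb (at most 0.758 TPM in a group mean). Rnf141, which shares up to 195 bases of an exon with Ampd3 on the opposite strand, averaged 18.8 TPM with overexpression and 18.2 TPM in control. Ampd3 also shares up to 83 exon bases with Gm47282 on the same strand, where strand cannot separate reads, and up to 174 with B430319F04Rik on the opposite strand. Gm47282 and B430319F04Rik are not among the deposited gene symbols, so they have no level here. The part of these overlaps in the Ampd3 values was not tested. Ckb has annotated pseudogenes, and how the authors assigned reads shared with them is not given in the sources used here.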

How the data were processed

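Polyadenylated left ventricular RNA was sequenced as strand-specific read pairs in 6 libraries, per the labels' protocols. The authors deposited TPM per gene symbol, named so per the file headers, with 1 column per sample and no counts. The submitters' processing notes name featureCounts 2.0.3, edgeR 3.40.2, GATK 4.2.6.1, STAR-Fusion 1.11.0 and a build mm8, without their roles. The aligner, the annotation and whether counting used strand: not given in the sources used here.

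Genes averaging 1 TPM or more were compared on log2(TPM + 1) with limma 3.58.1 in R 4.3.3 (trended prior, two-sided, Benjamini-Hochberg over 12404 genes, threshold 0.05). This scale understates changes of low genes, and folds are ratios of mean TPM. Depth was estimated from the spacing of TPM multiplied by GENCODE M21 exon length. Between 30.3% and 41.2% of genes then held whole reads within 0.05, so totals are approximate and reads per gene are not given. The labels do not say that libraries are separate animals, so p-values measure the spread between libraries. Replicates are numbered in order and carry no pairing or batch.

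The 8 genes and all lists were chosen with earlier results of these data known. The naming rule took the 8 genes, Rbm20, Esr1, from each pathway list the 3 genes with the smallest p and the 3 nearest profiles of Ckm, Mb, Ckb and Ampd3, of which 2 genes are not reported here. Alternatives were other pseudocounts, filters, scalings and limma priors, and each library left out. The limma script was tested on simulated data. Summaries used Python 3.11.15, numpy 2.4.6, pandas 2.3.3, scipy 1.17.1 and matplotlib 3.10.9.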

Additional observations from a re-analysis of the deposited data

How the results depend on the processing

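In each of 20 alternatives Mb, Ckmt2, Ckm and Ak1 were lower and Ckb and Ampd3 higher, all past the threshold. Log2 differences ranged from -2.36 to -1.45 for Mb, -1.62 to -0.78 for Ckmt2, -1.33 to -0.51 for Ckm, -1.28 to -0.46 for Ak1, 0.58 to 1.45 for Ckb and 1.60 to 2.49 for Ampd3. Slc6a8 was called lower in 8 of them, all with median-of-ratios scaling or without mitochondrially encoded genes. Between 6 and 7 of the 8 genes were called throughout, and 6 when a library was left out in TPM. Genes called numbered 7225 to 8283 with each library left out in TPM, and 4414 to 5478 with rescaling as well. With rescaling Gamt (-0.19), Nme6 (-0.40) and Nme7 (-0.034) turned negative, Nme6 also without mitochondrially encoded genes (-0.088). Over the 12 fits that left out a library, in TPM and rescaled, Gamt ranged from -0.30 to 0.42, Nme6 from -0.53 to 0.27 and Nme7 from -0.11 to 0.55, each negative under rescaling only. Among the other genes that the naming rule took and the text reports, calls were lost only when rescaling and leaving out a library were combined: Ak6 in 5 fits, B3gnt3 in 3 and Impdh2 in 2. The cause was not tested. Adding Ckmt1 to the creatine kinase sum left the 3 shares within their SD. No paired analysis was possible because the labels give no shared replicate numbers. TPM hold no direct depth, so no counting interval was given for low genes such as Ampd1.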
